A study of Homo sapiens with 16 samples.

Results

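The genes described are 10 heterogeneous nuclear ribonucleoprotein (hnRNP) genes, HNRNPA1, HNRNPA2B1, HNRNPA3, HNRNPC, HNRNPD, HNRNPF, HNRNPH1, HNRNPK, HNRNPM and HNRNPU. They were listed by name, with earlier results of these data known, from the 31496 genes to which the transcripts of the series were summed. In all, 166 of the 189 transcripts that GENCODE 29 annotates for them were measured, among 166096 transcripts. The series asked how gene expression and alternative splicing differ between wild-type and NORAD-depleted HCT116 cells, a human colon cancer line, and NORAD is a long noncoding RNA. There were 16 libraries of polyadenylated RNA in 6 groups: wild type and knockdown with 2 libraries each at 24 h, 3 each at 48 h and 3 each at 96 h. Knockdown was by CRISPR interference (CRISPRi), which represses a promoter with a catalytically dead Cas9, and was induced with 0.5 µg/ml doxycycline in the medium for the stated time. The labels give the same protocol for all samples and do not say whether wild-type cells also received doxycycline or carried the CRISPRi construct, nor whether a knockdown group is 1 clone. Separate cultures are not named for the replicates either, so each p-value reflects how far these particular libraries vary, and that variation may be technical. In bulk RNA, fewer cells of a type and less RNA per cell cannot be told apart.

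The hnRNP proteins coat newly made RNA polymerase II transcripts in the nucleus and take part in splicing, polyadenylation, RNA export, translation and RNA decay. Most bind RNA through RNA recognition motifs or, in the case of the HNRNPK product, through KH domains, and several shuttle between nucleus and cytoplasm. They are abundant proteins of dividing cells, and many of their genes make alternative coding isoforms as well as transcripts with a retained intron or a premature stop codon, some of which serve in autoregulation.

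The members lie on 10 chromosomes (GRCh38): HNRNPA1 at chr12:54280193-54287088, HNRNPA2B1 at chr7:26173057-26201529, HNRNPA3 at chr2:177212563-177223958, HNRNPC at chr14:21209136-21269494 and HNRNPD at chr4:82352498-82374503. The others are HNRNPF at chr10:43385617-43409166, HNRNPH1 at chr5:179614178-179634784, HNRNPK at chr9:83968083-83980616, HNRNPM at chr19:8444767-8489114 and HNRNPU at chr1:244840638-244864560. HNRNPU was measured with 11 of its 31 annotated transcripts, HNRNPH1 with 49 of 50, HNRNPM with 16 of 17, HNRNPA2B1 with 8 of 9 and the other 6 genes with all of theirs.

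Several members make isoforms that differ by a short in-frame coding segment and some of the transcript results below concern these pairs. Each segment is printed on the coding strand, read from the GENCODE 29 transcript sequences on GRCh38. Capitals mark the segment that the first-named transcript has and the second lacks, and lower case gives the 15 bases on either side in the transcript. For HNRNPA2B1 the segment is the 36-nt exon at chr7:26197831-26197866 (minus strand) that sets the B1 form (HNRNPA2B1-201) apart from the A2 form (HNRNPA2B1-202). For HNRNPC it is 39 nt at chr14:21230958-21230996 (minus strand), in the C2-type transcripts HNRNPC-230 and HNRNPC-211 and not in HNRNPC-205. HNRNPD has a pair of such exons, 57 nt at chr4:82371528-82371584 in HNRNPD-203 and 147 nt at chr4:82356537-82356683 in HNRNPD-202 (both minus strand). In HNRNPA3 a 66-nt part of an exon at chr2:177212806-177212871 (plus strand) is in HNRNPA3-201 and not in HNRNPA3-202. In HNRNPM a 117-nt part of an exon at chr19:8465363-8465479 (plus strand) is in HNRNPM-201 and in neither HNRNPM-202 nor HNRNPM-213.
HNRNPA2B1-201 and not HNRNPA2B1-202: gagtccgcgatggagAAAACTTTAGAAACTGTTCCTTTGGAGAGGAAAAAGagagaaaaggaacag
HNRNPC-230 and not HNRNPC-205: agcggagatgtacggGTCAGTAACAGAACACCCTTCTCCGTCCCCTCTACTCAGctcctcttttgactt
HNRNPD-203 and not HNRNPD-202: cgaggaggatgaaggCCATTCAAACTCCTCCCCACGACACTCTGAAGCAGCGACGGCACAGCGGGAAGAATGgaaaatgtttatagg
HNRNPD-202 and not HNRNPD-203: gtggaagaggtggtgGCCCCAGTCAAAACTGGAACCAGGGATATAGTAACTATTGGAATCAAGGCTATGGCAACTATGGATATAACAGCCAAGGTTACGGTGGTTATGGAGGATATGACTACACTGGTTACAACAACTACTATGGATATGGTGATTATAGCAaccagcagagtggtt
HNRNPA3-201 and not HNRNPA3-202: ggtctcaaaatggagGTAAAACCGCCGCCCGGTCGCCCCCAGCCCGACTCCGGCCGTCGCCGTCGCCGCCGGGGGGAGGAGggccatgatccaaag
HNRNPM-201 and not HNRNPM-202: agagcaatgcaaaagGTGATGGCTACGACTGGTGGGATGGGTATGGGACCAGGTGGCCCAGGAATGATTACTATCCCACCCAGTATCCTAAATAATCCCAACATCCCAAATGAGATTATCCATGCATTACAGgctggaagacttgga
The 6 lengths are all multiples of 3, so each pair keeps its reading frame. HNRNPH1-203 and HNRNPH1-204 have the same coding part and differ outside it, as do HNRNPF-201 and HNRNPF-203.

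Library totals lay between 28391784 and 51853876 estimated counts, the fractional read assignments that kallisto makes to transcripts. Levels of 1 gene are compared between libraries in CPM, counts relative to library size with the sizes adjusted by edgeR's TMM factors (the trimmed-mean method). Levels of different genes are compared in TPM, which also allows for transcript length. NORAD, the target, stood at 179 and 201 CPM in the wild-type libraries at 24 h and at 230 and 188 CPM in the libraries labelled knockdown, so the label was not borne out at 24 h (log2 difference 0.14, adjusted p = 0.523, edgeR). NORAD was lower in all 3 knockdown libraries at 48 h (18.1 to 24.8 against 155 to 162 CPM) and at 96 h (66.2 to 79.9 against 181 to 184 CPM). The epithelial markers KRT8 (1587 to 2861 CPM), KRT18 (926 to 1589 CPM), EPCAM (193 to 314 CPM) and CDH1 (63.7 to 143 CPM) were present in every library, whereas CDX1, a colon transcription factor, reached only 0.0890 CPM. Of 10 measured markers of leukocytes, fibroblasts, endothelium and hepatocytes, CD68 (8.69 to 52.1 CPM) and COL1A1 (33.6 to 79.5 CPM) were the ones above 2 CPM anywhere. The summed leukocyte list (3 genes) was at 47.6 to 52.6 CPM in wild type and 34.2 to 41.2 CPM in the libraries labelled knockdown at 24 h, 8.83 to 11.2 against 11.1 to 12.9 CPM at 48 h and 12.6 to 17.3 against 24.9 to 28.7 CPM at 96 h. The summed fibroblast list (3 genes) was at 33.8 to 34.9 CPM in wild type and 61.7 to 80.6 CPM in knockdown at 48 h. The defining leukocyte markers PTPRC and CD3E stayed at or under 0.264 CPM and COL1A2 and DCN at or under 0.678 CPM. The summed epithelial list (5 genes) was lower in the libraries labelled knockdown at 24 h (3141 to 3371 against 3819 to 4029 CPM) and 48 h (2963 to 3549 against 4578 to 4807 CPM) and higher at 96 h (3368 to 3548 against 2939 to 3189 CPM). Mitochondrially encoded genes held more of the counts in knockdown at 24 h (6.08% and 6.10% against 4.89% and 5.05%) and 48 h (12.3% to 13.8% against 10.4% to 11.1%). The part of these shifts in the differences of the hnRNP genes was not tested. Knockdown replicate 3 at 48 h stood apart from its group: transcripts annotated as retained introns held 4.18% of its counts, against 5.73% and 5.29% in the other knockdown libraries and 4.05% to 4.26% in wild type. Results at 48 h are therefore given with and without that library where it changes a call.

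All 10 members were among the most abundant genes, at or above percentile 97.8 of the 19836 genes tested. In wild type at 24 h HNRNPA1, which codes for a splicing repressor of the A/B group, had the highest level at 1624 ± 88.6 TPM (SD, n = 2). HNRNPC (714 ± 60.0 TPM), whose protein forms a tetramer that packages nascent RNA, and HNRNPA2B1 (630 ± 66.0 TPM), the other main A/B core protein, came next and overlapped each other. Then came HNRNPH1 (423 ± 42.2 TPM) and HNRNPK (384 ± 44.0 TPM), which also overlapped, and HNRNPD (281 ± 35.4 TPM). HNRNPM (236 ± 13.4 TPM) and HNRNPA3 (233 ± 13.4 TPM) could not be ordered, nor could HNRNPF (199 ± 25.1 TPM) and HNRNPU (175 ± 9.65 TPM). HNRNPU had the lowest mean in all 3 wild-type groups but overlapped HNRNPF at 24 h and HNRNPM at 96 h. HNRNPA1 was first at every time, with 1429 ± 112 TPM at 48 h and 1539 ± 47.6 TPM at 96 h (n = 3 each). The rank of HNRNPC varied: its wild-type level was 714 TPM at 24 h, 347 ± 8.67 TPM at 48 h, where it was below HNRNPA2B1 in every library, and 570 ± 42.2 TPM at 96 h. The summed level of the 10 genes was 4618 and 5180 TPM in wild type at 24 h, 3773 to 4245 TPM at 48 h and 3979 to 4171 TPM at 96 h. On this scale the libraries labelled knockdown held 4409 and 4341 TPM at 24 h, 2628 to 3732 TPM at 48 h and 3202 to 3382 TPM at 96 h.

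**Figure D1:**
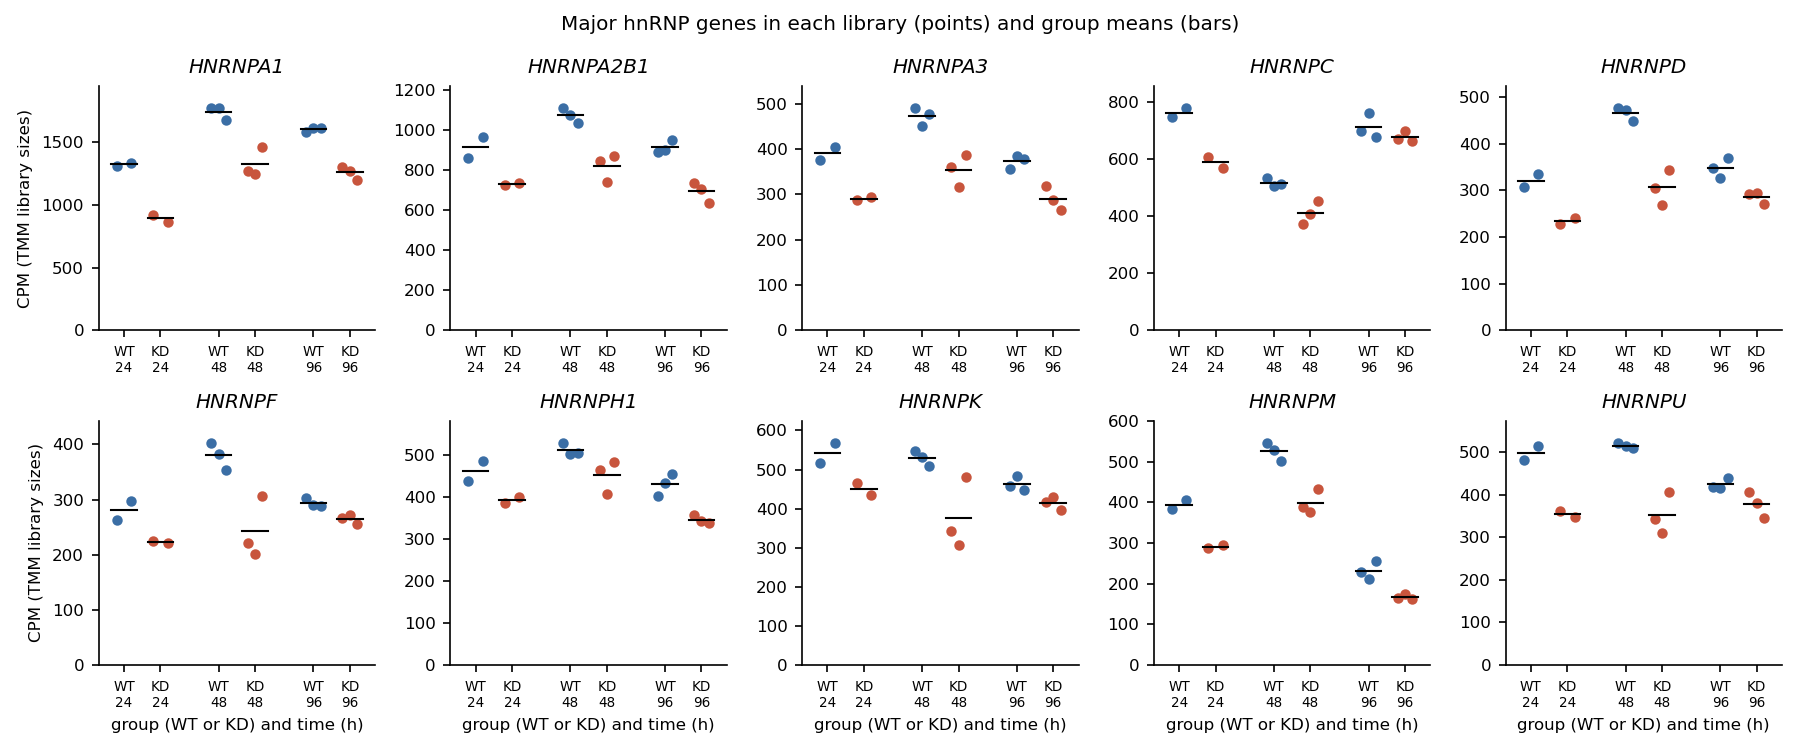
CPM (TMM library sizes, linear axes from 0) of the 10 members in each of the 16 libraries by group (WT, wild type; KD, labelled knockdown) and time in h; points are libraries with replicates in order from left to right, and bars are group means. At 24 h and 48 h all 10 members had every KD point below every WT point, and at 96 h 9 of 10 did, HNRNPC being the exception (661 to 696 against 676 to 762 CPM).

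At 24 h, 7 of the 10 genes were lower in the libraries labelled knockdown (edgeR quasi-likelihood test, adjusted p under 0.05 over all 19836 genes), where 12.4% of all tested genes were called lower and 5.14% higher. The members sat in a range of expression that was lower as a whole: of the 433 genes at least as abundant as the least abundant member, 56.6% were called lower. The median log2 difference was -0.40 for the members, -0.35 for those 433 genes and -0.02 for all tested genes. NORAD itself was not lower in these libraries. HNRNPA1 stood at 1309 and 1337 CPM in wild type and at 918 and 867 CPM in the libraries labelled knockdown. That is 67.4% of the wild-type mean, the lowest percentage among the members at this time (log2 difference -0.57 ± 0.0890 SE, adjusted p = 0.000172), and it was called whichever library was left out. HNRNPU, which codes for a nuclear matrix-associated scaffold protein (also SAF-A), had 481 and 514 CPM against 363 and 348 CPM (adjusted p = 0.00231). HNRNPM, whose product is a splicing regulator, had 383 and 406 CPM against 288 and 295 CPM (adjusted p = 0.00231). For both genes the pairs of libraries lay apart by more than the gap within a pair, and the called members besides HNRNPA1 had 71.5% to 80.0% of their wild-type mean. HNRNPD (AUF1, a binder of AU-rich elements) was at 73.1%, HNRNPA3 at 74.4%, HNRNPC at 77.2% and HNRNPA2B1 at 80.0%. Their adjusted p-values were 0.00321, 0.00429, 0.00693 and 0.0221. HNRNPF, HNRNPH1 and HNRNPK, which code for the G-tract binders hnRNP F and H1 and the poly(C) binder hnRNP K, did not pass (adjusted p of 0.105, 0.0928 and 0.222). Leaving out 1 library changed the count from 7 to between 2 and 10. It was 2 (HNRNPA1 and HNRNPD) without KD replicate 2 at 24 h, 3 (HNRNPA1, HNRNPM and HNRNPU) without WT replicate 2 at 24 h and 10 without KD replicate 3 at 48 h, whose spread enters the shared error. HNRNPA2B1 was lost without WT replicate 2 (adjusted p = 0.276), KD replicate 1 (0.132) or KD replicate 2 (0.211) at 24 h, or without WT replicate 2 at 48 h (0.0789). HNRNPA3 and HNRNPC were lost without WT replicate 2 (0.0728 and 0.0827) or KD replicate 2 (0.0786 and 0.200) at 24 h. HNRNPD was lost without WT replicate 2 at 24 h (0.0637), and HNRNPM and HNRNPU without KD replicate 2 at 24 h (0.0540 and 0.0811).

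At 48 h, with NORAD depleted, 9 of 10 members were lower in knockdown, against 18.5% of all tested genes (33.2% were called in either direction) and 55.7% of the 433 abundant genes. The median log2 difference was -0.41 for the members, -0.25 for the abundant genes and 0.06 for all genes. HNRNPF was at 402, 383 and 354 CPM in wild type and at 220.5, 201 and 307 CPM in knockdown. Its 63.9% of the wild-type mean was the lowest of the members here (log2 difference -0.65 ± 0.110, adjusted p = 0.000190), with knockdown replicate 3 nearest to wild type. HNRNPD was at 476, 472 and 449 CPM in wild type and 306, 269 and 344 CPM in knockdown, 65.8% of the wild-type mean (log2 difference -0.60 ± 0.0823, adjusted p = 1.15e-05). HNRNPU followed with 521, 514 and 510 CPM against 344, 309.5 and 406 CPM, 68.6% (adjusted p = 5.06e-05). HNRNPK stood at 547, 532 and 509 CPM against 342, 308 and 481 CPM, 71.2% (adjusted p = 0.00266), so 1 of its 3 knockdown libraries was close to the wild-type range. The A/B genes HNRNPA1, HNRNPA2B1 and HNRNPA3 were at 76.4%, 76.4% and 75.0% of wild type, HNRNPM at 75.9% and HNRNPC at 79.6%, with adjusted p-values from 0.000321 to 0.00214. HNRNPH1 was at 88.3% (528, 501.5 and 504 CPM against 464, 406 and 484 CPM) and did not pass, with an adjusted p of 0.0701, although its groups did not overlap. The 9 calls held whichever library was left out. Without knockdown replicate 3 HNRNPH1 passed as well (log2 difference -0.23, adjusted p = 0.0122), and the log2 differences of HNRNPF, HNRNPK, HNRNPD and HNRNPU became -0.85, -0.70, -0.70 and -0.66. With DESeq2, the tool named in the submitters' processing notes, all 10 were called, where 3935 of 19836 genes were called lower.

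At 96 h, 6 members were lower in knockdown, HNRNPA1, HNRNPA2B1, HNRNPA3, HNRNPD, HNRNPH1 and HNRNPM, against 5.15% of all tested genes (5.35% were higher) and 13.2% of the abundant genes. The median log2 difference was -0.30 for the members, -0.05 for the abundant genes and -0.01 for all genes. HNRNPM had the lowest percentage of wild type, 72.3%, with 230, 212 and 255 CPM in wild type and 165, 175 and 163 CPM in knockdown (log2 difference -0.47 ± 0.0766, adjusted p = 0.000291). HNRNPA2B1 was at 890, 901 and 949 CPM in wild type and 736, 707 and 637 CPM in knockdown, 76.0% (log2 difference -0.40 ± 0.0780, adjusted p = 0.00167). All 3 A/B genes were lower in knockdown by similar proportions, with HNRNPA3 at 77.7% (adjusted p = 0.00456) and HNRNPA1 at 78.6% (1581, 1616 and 1615 against 1305, 1273 and 1202 CPM, adjusted p = 0.00269). HNRNPH1 was at 80.4% (403, 433.5 and 454 against 357, 342 and 338 CPM, adjusted p = 0.00766), though its call was lost without WT replicate 3 at 96 h (adjusted p = 0.0515). HNRNPD was at 82.1% (adjusted p = 0.0278), and its call was lost without any 1 of WT replicates 1 and 3 or KD replicates 1, 2 and 3 at 96 h, with adjusted p from 0.0519 to 0.155. HNRNPF, HNRNPK and HNRNPU, which were among the 4 with the lowest percentages at 48 h, had log2 differences of -0.15, -0.16 and -0.17 here and did not pass (adjusted p of 0.494, 0.471 and 0.251). HNRNPC had a log2 difference of -0.08 (adjusted p = 0.660) and overlapping groups.

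Counting only non-overlap of the libraries in TMM-scaled CPM, all 10 members at 24 h, all 10 at 48 h and 9 of 10 at 96 h had every knockdown library below every wild-type library, where 32.9%, 20.3% and 15.6% of all tested genes did. In TPM the same count was 5, 5 and 10 of 10, against 12.1%, 11.3% and 17.5% of all tested genes. At 24 h in TPM HNRNPH1 was higher in both libraries labelled knockdown (463 and 474 against 393 and 453 TPM), and HNRNPA2B1, HNRNPC, HNRNPF and HNRNPK overlapped. At 48 h in TPM HNRNPA3, HNRNPF, HNRNPH1, HNRNPK and HNRNPM overlapped. A test of whether the knockdown difference itself varied between the 3 times called 0 of the 10 members with edgeR, against 9.44% of all genes. Of the members, 4 had an unadjusted p under 0.05, and HNRNPU (adjusted p = 0.0860) and HNRNPF (adjusted p = 0.103) had the lowest values. DESeq2 called these 2 (adjusted p of 0.0246 and 0.0265), where it called 2846 of 19836 genes. Without knockdown replicate 3 at 48 h edgeR called 5, where 5035 of 19817 genes were called. The 5 were HNRNPF (adjusted p = 6.52e-05), HNRNPK (0.000649), HNRNPU (0.00205), HNRNPD (0.0109) and HNRNPC (0.0159). In each of these 5 the difference was larger at 48 h than at 96 h. Abundance-dependent scaling called 1, HNRNPH1 (adjusted p = 0.0443), with the larger difference at 96 h (-0.30 against 0.06 at 48 h). Under that scaling 1593 of 19836 genes were called.

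How the libraries are scaled changed the values at 24 h and 48 h more than at 96 h. Under an abundance-dependent scaling, which centres each library at every level of expression and so removes a shift common to abundant genes, 0 members were called at 24 h (4 with an unadjusted p under 0.05), 5 at 48 h and the same 6 at 96 h. The matching share of all genes called lower was 6.99%, 13.8% and 6.15%, and that of the 433 abundant genes 12.2%, 19.4% and 17.6%. The 5 genes still called at 48 h were HNRNPF (log2 difference -0.44), HNRNPD (-0.38), HNRNPU (-0.31), HNRNPK (-0.26) and HNRNPM (-0.17). HNRNPA2B1, HNRNPH1 and HNRNPK turned to 0.03, 0.05 and 0.02 at 24 h, as did HNRNPH1 to 0.06 at 48 h, none of them called. Total-count scaling called 1 member at 24 h (HNRNPA1), 9 at 48 h and 6 at 96 h. It moved the median of all genes from -0.02 to 0.19 at 24 h and from 0.06 to 0.20 at 48 h, and the share of all calls that were higher from 29.3% to 75.4% and from 44.4% to 68.9%. Upper-quartile scaling called 6, 9 and 6 members, with 53.7% and 64.3% of all calls higher at 24 h and 48 h. At 96 h the 4 scalings gave the same 6 calls and member medians from -0.28 to -0.30.

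**Figure D2:**
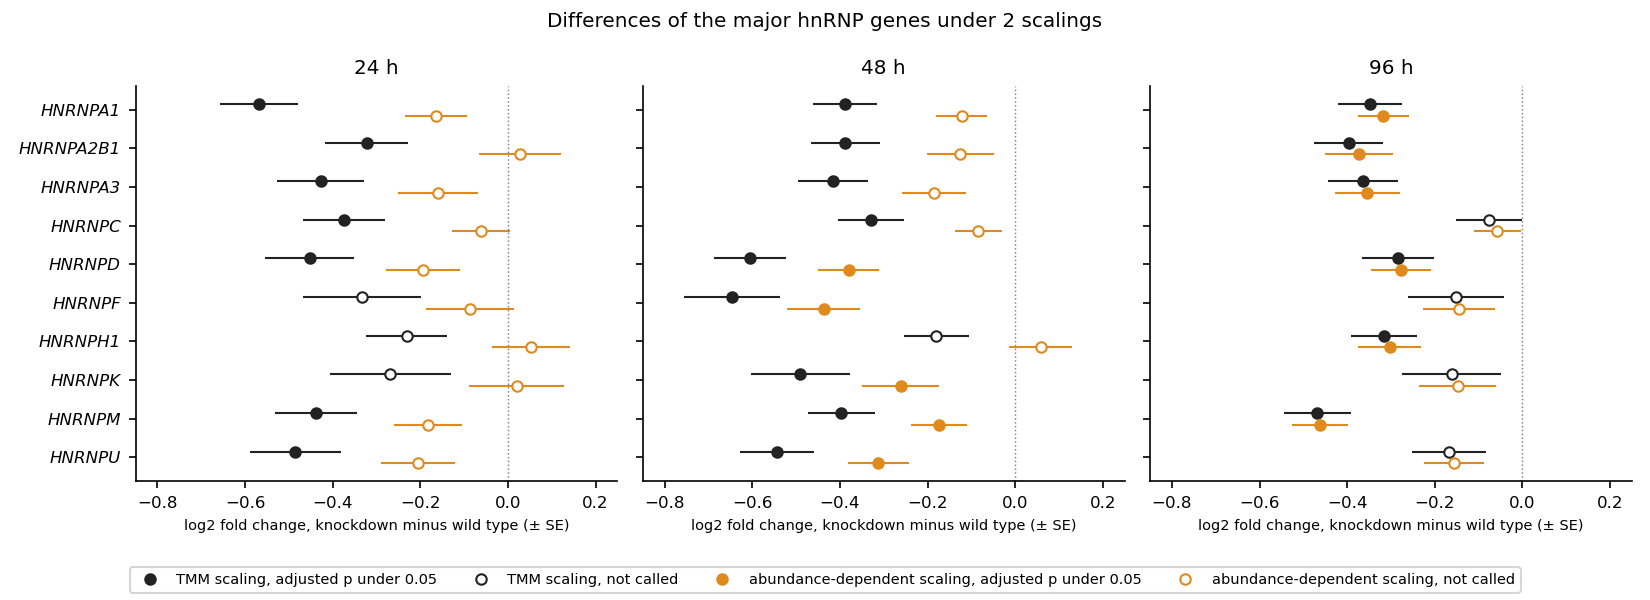
Log2 fold change (± SE from the edgeR fit) of each member, knockdown minus wild type, at 24 h, 48 h and 96 h on a common axis, under TMM scaling (black) and abundance-dependent scaling (orange); filled points passed an adjusted p of 0.05. The orange points lie to the right of the black ones at 24 h (median -0.12 against -0.40) and 48 h (-0.18 against -0.41) and nearly on them at 96 h (-0.29 against -0.30).

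In wild type between 24 h and 96 h, 2 members were called (1 lower, 1 higher), where 35.2% of all genes and, in the lower direction, 51.3% of the 433 abundant genes were. In TMM-scaled CPM, 3 of 10 members had every library at 96 h below every library at 24 h, where 33.2% of all genes did. In TPM 8 of 10 did, all but HNRNPA1 and HNRNPD, against 47.4% of all genes. HNRNPM fell from 383 and 406 CPM to 230, 212 and 255 CPM, 58.9% of its level at 24 h (log2 difference -0.76 ± 0.0843, adjusted p = 3.84e-07), and was called under each of the 4 scalings and with any 1 of the 16 libraries left out. HNRNPA1 rose from 1309 and 1337 CPM to 1581, 1616 and 1615 CPM (log2 difference 0.28 ± 0.0815, adjusted p = 0.0109). In TPM HNRNPA1 did not rise, with 1561 and 1687 TPM at 24 h and 1592, 1528 and 1498 TPM at 96 h. The HNRNPA1 call was lost without WT replicate 1 or 2 at 24 h (adjusted p of 0.0906 and 0.0537). The other 8 were between 85.3% and 108.5% of their level at 24 h in CPM. In mean TPM, HNRNPH1 went from 423 to 290, HNRNPA3 from 233 to 166 and HNRNPU from 175 to 130, while HNRNPD overlapped. With coding transcripts alone 5 members were called, HNRNPH1 (-0.38), HNRNPU (-0.30) and HNRNPK (-0.25) being lower as well, and a fit of only these 2 groups called 4, with HNRNPU (-0.20) and HNRNPK (-0.19) lower. Abundance-dependent scaling called 6 members, HNRNPM lower (-0.53) and HNRNPA1 (0.62), HNRNPD (0.36), HNRNPA2B1 (0.31), HNRNPF (0.29) and HNRNPC (0.19) higher. Of all genes tested, 5989 of 14661 were called with coding transcripts alone and 8513 of 18307 in the fit of 2 groups. Under abundance-dependent scaling 7178 of 19836 were called. The share of counts from mitochondrially encoded genes in wild type was 4.89% and 5.05% at 24 h and 15.5% to 16.6% at 96 h, and its part in these differences was not tested.

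The shares of each gene's estimated counts were followed for the 42 member transcripts that held at least 5% of their gene in some group and passed the count minimum. No knockdown contrast called any of them by limma on log ratios, and edgeR's diffSpliceDGE called 0 as well. The background was low too, with 0.0288%, 0.592% and 0.0123% of 24304 transcripts called at 24 h, 48 h and 96 h. Unadjusted p-values under 0.05 numbered 8, 8 and 1, and the lowest adjusted p-values were 0.226 (HNRNPH1-204 at 24 h), 0.111 (HNRNPA2B1-203 at 48 h) and 0.943 (HNRNPC-230 at 96 h). The isoform that carries the B1 exon, HNRNPA2B1-201, held 4.07% and 3.48% of its gene in wild type at 24 h and 4.53% and 6.88% in the libraries labelled knockdown. The A2 form HNRNPA2B1-202 held 71.3% to 80.2% of the gene in every library. The C2-type transcript HNRNPC-230 held 20.4% to 25.1% in wild type and 27.4% to 29.2% in knockdown at 96 h (adjusted p = 0.943). HNRNPC-211, also C2-type, had a lower mean in knockdown at 96 h, with overlap (15.65% to 17.19% in wild type, 13.58% to 16.11% in knockdown). HNRNPD-210, a retained-intron transcript, held 2.98% and 4.02% in wild type and 5.98% and 5.96% in the libraries labelled knockdown at 24 h, and 4.76% to 5.65% against 6.54% to 7.67% at 96 h. Its groups did not overlap at either time, with adjusted p of 0.544 and 1.00.

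At 48 h the result for isoforms rested on 1 library. Without knockdown replicate 3, 15 of the 42 member transcripts were called (3 higher, 12 lower, in 9 genes), and 4448 of all tested transcripts in place of 144. For HNRNPD-210 wild type had 2.56%, 2.53% and 3.04% of the gene, and knockdown had 5.43%, 6.40% and 2.76% in replicates 1, 2 and 3, so replicate 3 lay in the wild-type range (adjusted p = 0.145 with it and 0.00139 without). HNRNPU-205, a coding transcript with a 3′ untranslated region of 4153 nt, had 18.5%, 19.6% and 17.1% in wild type and 14.0%, 12.3% and 18.0% in knockdown (adjusted p = 0.190 and 0.00767). HNRNPA2B1-201 had 4.91%, 4.30% and 7.46% in wild type and 9.07%, 10.9% and 6.07% in knockdown (adjusted p = 0.206 and 0.0278). In these transcripts knockdown replicate 3 was nearer to wild type than knockdown replicates 1 and 2 were. Wild-type replicate 3 at 48 h also differed from its group in some of them, on the side of knockdown replicates 1 and 2. For HNRNPK-205 the shares were 12.9%, 7.49% and 24.5% in wild type and 19.6%, 26.6% and 14.9% in knockdown. For HNRNPD-205 they were 3.47%, 4.60% and 0.271% in wild type and 0.213%, 0.154% and 4.38% in knockdown. For HNRNPM-213 they were 5.61%, 6.22% and 2.75% in wild type and 2.02%, 0.226% and 5.70% in knockdown. In all 3 transcripts each replicate 3 lay with the other 2 libraries of the opposite group. HNRNPK-207, a transcript of the nonsense-mediated decay class, followed the same order (4.96%, 6.89% and 1.03% against 1.00%, 0.0% and 4.99%). NORAD was at 162 CPM in the wild-type and 24.8 CPM in the knockdown replicate 3, close to the other libraries of each group. Without wild-type replicate 3, 0 member transcripts were called, with 13 unadjusted p-values under 0.05 and a lowest adjusted p of 0.0537 (HNRNPK-204).

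**Figure D3:**
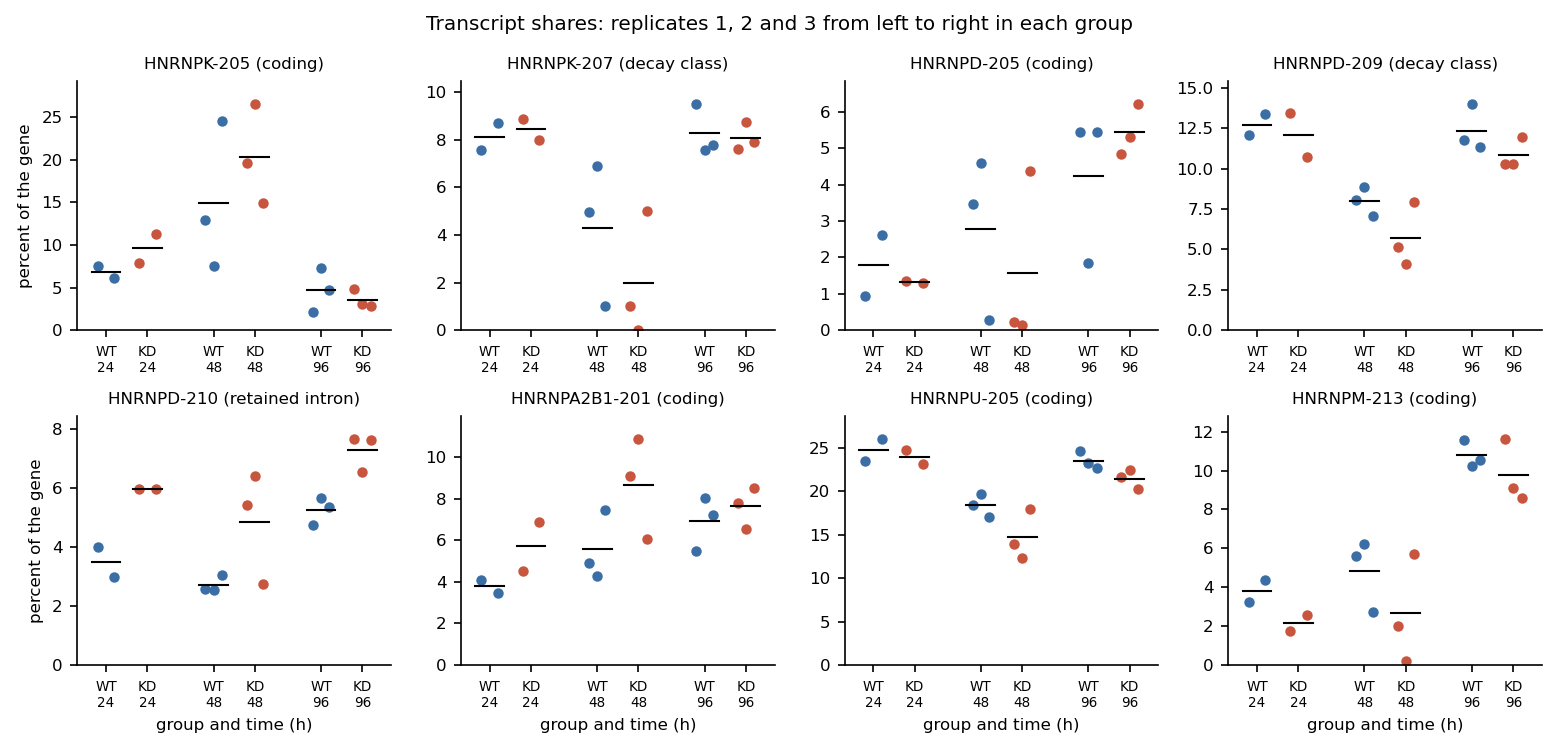
Percent of its gene's estimated counts held by 8 member transcripts in each library, by group (WT, KD) and time in h; points are libraries with replicates 1, 2 and 3 from left to right, bars are group means, and linear axes start at 0. At 48 h the right-most KD point lies with WT, and for HNRNPK-205, HNRNPK-207, HNRNPD-205 and HNRNPM-213 the right-most WT point lies with the other KD points.

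Isoform shares differed between the times in wild type, a comparison added after the data were seen. The wild-type libraries also differed in total estimated counts, 28391784 and 28582248 at 24 h against 43195627 to 51853876 at 96 h. Time cannot be told apart from such differences between the sets of libraries, and their part was not tested. Between 24 h and 96 h 19 of the 42 member transcripts were called (8 higher and 11 lower, in 8 of the 10 genes), where 13.4% of 24304 transcripts were. The 2 genes without a call were HNRNPK and HNRNPU. The largest exchange was in HNRNPH1, between transcripts with the same coding part. HNRNPH1-203 fell from 45.2% and 46.9% of the gene at 24 h to 27.0%, 25.0% and 23.4% at 96 h (log2 ratio difference -1.35 ± 0.161, adjusted p = 0.000124). HNRNPH1-204 rose from 12.8% and 10.8% to 26.1%, 30.6% and 27.5% (1.54 ± 0.198, adjusted p = 0.000216). At 48 h HNRNPH1-204 was already at 27.3% to 29.9% in wild type. The retained-intron transcript HNRNPH1-206 rose from 1.89% to 6.31% on average (adjusted p = 0.000400), and the short coding transcript HNRNPH1-231 fell from 9.94% to 3.65% (adjusted p = 0.000623). In the libraries labelled knockdown HNRNPH1-204 was at 5.50% and 8.33% at 24 h and at 22.4% to 26.0% at 96 h, where no test over time was run.

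Among the pairs whose sequences are printed above, HNRNPD-203, with the 57-nt exon, fell from 66.3% and 63.3% to 51.8%, 54.1% and 52.1% (adjusted p = 0.00243). HNRNPD-202, with the 147-nt exon, rose from 11.8% and 11.5% to 16.9%, 17.3% and 18.2% (adjusted p = 0.0221). HNRNPA3-202, without the 66-nt part and with a 3′ untranslated region of 4566 nt, rose from 22.8% and 23.2% to 32.7%, 39.2% and 34.2% (adjusted p = 0.00176). HNRNPA3-201 fell from 71.1% to 60.2% on average (adjusted p = 0.0199). HNRNPM-201, with the 117-nt part, fell from 82.2% to 74.0% (adjusted p = 0.0160), in the gene whose total also fell. Of the transcripts without that part, HNRNPM-202 did not rise (6.67% and 5.35% on average), while HNRNPM-213 went from 3.83% to 10.8%. The A2 form HNRNPA2B1-202 fell from 79.9% to 74.4% (adjusted p = 0.0215) while the retained-intron transcript HNRNPA2B1-204 rose from 5.97% to 9.49% (adjusted p = 0.00315). The B1 form HNRNPA2B1-201 went from 3.78% to 6.90% on average and was not among the 19 calls. In HNRNPA1, for which no segment is printed, HNRNPA1-203 rose from 16.1% to 20.7% (adjusted p = 0.0288). Of the 19 calls, 7 held whichever library was left out: HNRNPH1-203, HNRNPH1-204, HNRNPH1-206, HNRNPH1-231, HNRNPD-203, HNRNPA3-202 and HNRNPA2B1-204. The other 12 were each lost without WT replicate 1 and also without WT replicate 2 at 24 h, with a highest adjusted p between 0.0785 and 0.232. edgeR's diffSpliceDGE called 6 member transcripts in this comparison, 5 of them among the 19 (the 4 HNRNPH1 transcripts named above and HNRNPA3-203), the other being HNRNPA2B1-201. kallisto divides reads between transcripts that overlap over most of their length by a model, so shares of such transcripts are less certain than the gene sums.

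**Figure D4:**
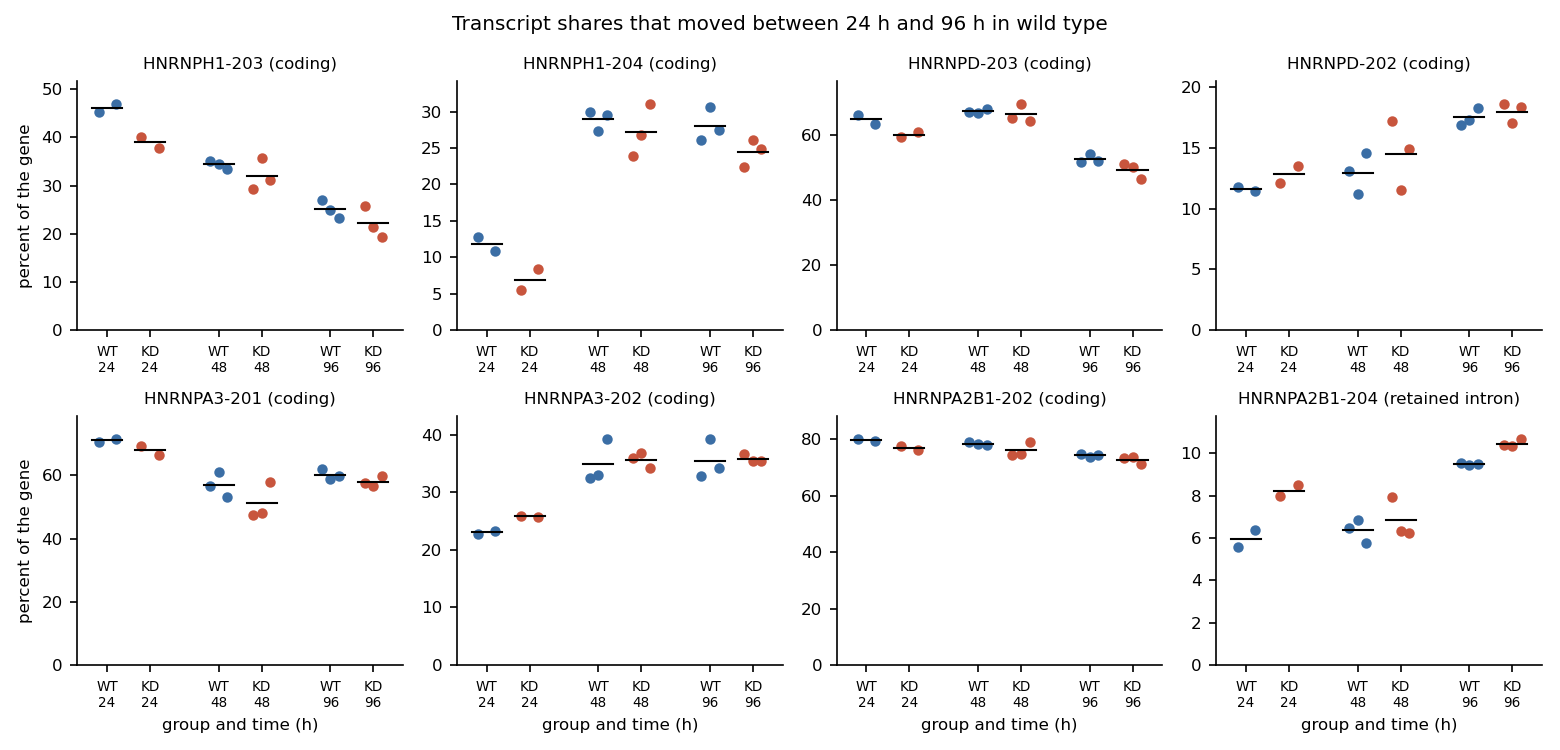
Percent of its gene's estimated counts held by 8 member transcripts in each library, by group (WT, KD) and time in h; points are libraries, bars are group means, and linear axes start at 0. HNRNPH1-203 falls and HNRNPH1-204 rises between 24 h and 96 h in wild type (12.8% and 10.8% to 26.1%, 30.6% and 27.5% for HNRNPH1-204).

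Transcripts annotated as nonsense-mediated decay targets or retained introns (the noncoding classes) held a large part of some members and little of others. In HNRNPH1, with 4 decay and 16 retained-intron transcripts, they held 27.1% and 25.4% of the estimated counts in wild type at 24 h and 34.6% and 36.7% in the libraries labelled knockdown. At 48 h the values were 24.2%, 27.3% and 27.5% in wild type and 35.6%, 27.3% and 26.1% in knockdown, with 1 knockdown library high. At 96 h they were 36.8% to 38.7% in wild type and 40.4% to 42.3% in knockdown. The groups of HNRNPH1 were apart at 24 h and 96 h, but the ratio of noncoding to coding classes passed at neither (log2 ratio differences 0.64 and 0.22, adjusted p of 0.350 and 1.00, limma). HNRNPA1 (14.5% to 20.3%), HNRNPA2B1 (10.8% to 18.5%), HNRNPD (10.6% to 19.9%) and HNRNPU (6.63% to 13.0%) had intermediate shares, and HNRNPF had no such transcript. Of the 9 members tested, 0 were called at any time, against 0.0298%, 0.268% and 0.0446% of 6720 genes, with 1, 2 and 0 unadjusted p-values under 0.05. The member medians of the log2 ratio difference were 0.20, 0.06 and -0.02, and the medians of all genes 0.21, 0.31 and -0.00. Without knockdown replicate 3 at 48 h, HNRNPM (2.37, adjusted p = 0.0198), HNRNPA1 (-0.27, adjusted p = 0.0311) and HNRNPK (-1.66, adjusted p = 0.0276) were called, where 1538 of 6720 genes were. HNRNPM's noncoding transcripts were at most 6.07% of the gene in any library.

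**Figure D5:**
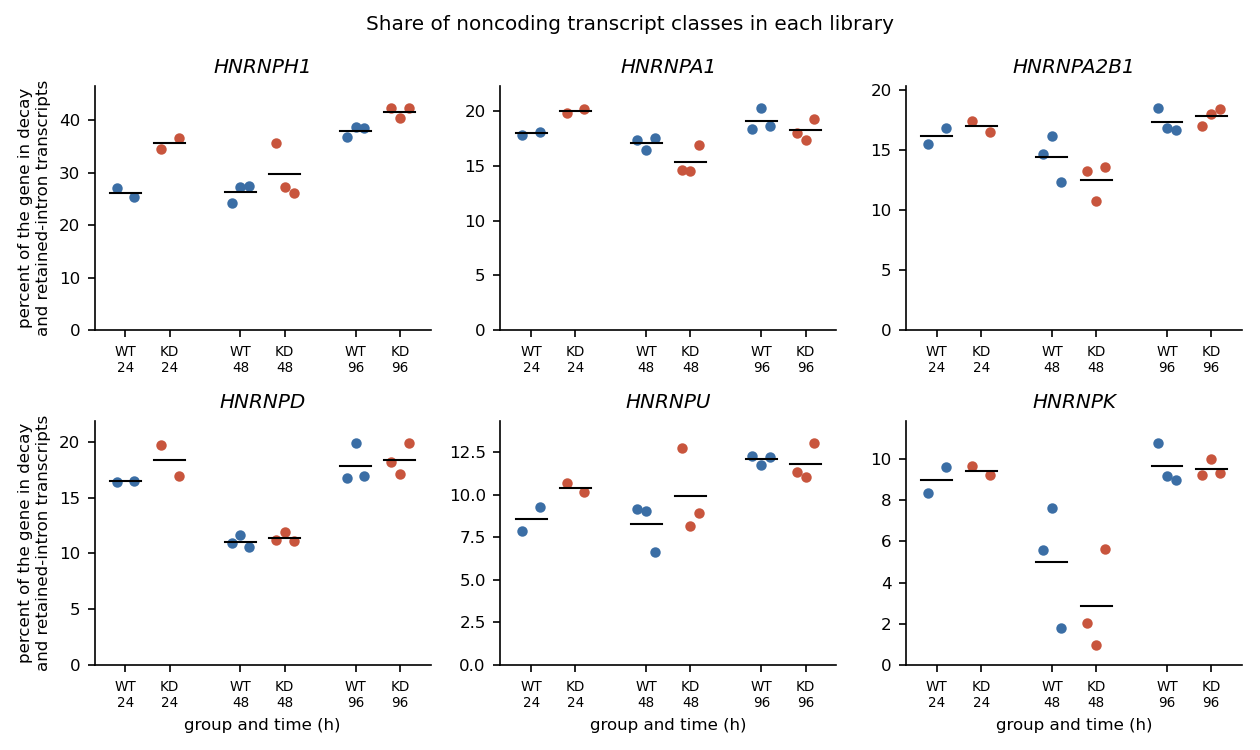
Percent of a gene's estimated counts in nonsense-mediated decay and retained-intron transcripts, for 6 members in each library, by group (WT, KD) and time in h; points are libraries, bars are group means, and linear axes start at 0. HNRNPH1 has the highest shares, with KD above WT at 24 h and 96 h and 1 of 3 KD libraries above WT at 48 h, and HNRNPK has its lowest shares at 48 h.

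Related genes were followed with lists written with earlier results of these data known. Of 27 other hnRNP and related RNA-binding genes, 14 were lower and 1 was higher at 24 h, 18 were lower at 48 h and 4 were lower at 96 h, with medians of -0.30, -0.27 and -0.13. Of all tested genes 12.4%, 18.5% and 5.15% were lower, and of the 433 abundant genes 56.6%, 55.7% and 13.2%, so the list's 14 of 27 at 24 h and 4 of 27 at 96 h were near the abundant-gene share. The same shares are set beside the next lists. The listed genes were not matched in abundance to the 433, so the abundant-gene share is not a matched background for them. SYNCRIP (hnRNP Q), which binds RNA in the cytoplasm and nucleus, fell at all 3 times (log2 differences -0.59, -0.67 and -0.35, adjusted p of 0.000262, 2.20e-06 and 0.00560). RBMX (hnRNP G) was lower at 24 h and 48 h (-0.33 and -0.59), as were HNRNPDL (-0.31 and -0.47), a paralogue of HNRNPD, and HNRNPAB (-0.45 and -0.53). At 96 h these 3 did not pass, with values from -0.18 to -0.19. The 1 gene that rose, TIA1 (0.38, adjusted p = 0.0186), and the other 3 that were lower at 96 h, HNRNPH3 (-0.31), HNRNPL (-0.28) and TARDBP (-0.28), are named after their values were seen. Under abundance-dependent scaling the lower calls of this list were 1, 7 and 5. Total-count scaling gave 2, 8 and 4, and TMM scaling without knockdown replicate 3 at 48 h gave 19, 21 and 10. Of 14 factors of nonsense-mediated decay, 4, 6 and 1 were lower, and 1 was higher at 48 h (UPF3A, 0.27, named after its value was seen). MAGOH, a core subunit of the exon junction complex, was lower at all 3 times (-0.68, -0.52 and -0.31). EIF4A3 and RBM8A, of the same complex, were lower at 24 h and 48 h, and the helicase UPF1 had -0.14, -0.26 and -0.00, called at 48 h only. Of 13 genes for nuclear import and modification of hnRNPs, 7, 9 and 1 were lower and 1 was higher at 48 h (TNPO2, 0.84, named after its value was seen). KPNA2, an importin alpha, was lower at all 3 times (-0.50, -0.52 and -0.74). The arginine methyltransferase genes PRMT5 (-0.48 and -0.52) and PRMT1 (-0.40 and -0.40) were lower at 24 h and 48 h, and the SR protein kinase gene SRPK1 at 48 h (-0.56). Under abundance-dependent scaling the lower calls of the last 2 lists were 1, 3 and 1, and 1, 6 and 3.

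Across the 16 libraries the members varied together to different degrees, given as a description over libraries that share groups, times and scaling. Pearson correlations of log2 CPM over the 45 pairs ran from -0.55 to 0.98 with a median of 0.68. HNRNPA2B1, HNRNPA3 and HNRNPU followed the mean standardised profile of the members most closely (r = 0.96, 0.95 and 0.94), HNRNPM less so (0.63), and HNRNPC hardly at all (0.0908). The lowest value, -0.55, was that of HNRNPC with HNRNPM. The 5 genes outside the family with the highest correlation with that mean profile were DCAF1 (r = 0.98), SLC7A5 (0.97), USP7 (0.97), PAICS (0.97) and LETM1 (0.97).

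NORAD is known as a long RNA with many binding sites for the Pumilio proteins, repressors that recognise UGUANAUA in 3′ untranslated regions. The motif was searched as TGTANATA on the transcript strand of the members' coding transcripts. In the leading coding transcript of each member, with 3′ untranslated regions of 260 to 782 nt, 0 of 10 held it, where 25.5% of 14741 genes did. Those genes were not matched to the members in the length of this region, so the 2 shares are not directly comparable. Of 24 coding member transcripts that have such a region, 2 held it, both long alternative forms. They are printed with the motif in capitals and 8 bases on either side, on the transcript strand, because they are the only matches among the 24. HNRNPA1-203 has it at chr12:54285730-54285737 (plus strand), position 1186 of a region of 2543 nt. HNRNPA2B1-201 has it at chr7:26191690-26191697 (minus strand), position 663 of 2433 nt.
HNRNPA1-203: gtgttattTGTACATAgattcttt
HNRNPA2B1-201: ttaaattaTGTAGATAacttaagg
HNRNPA1-203 held 15.9% to 23.7% and HNRNPA2B1-201 held 3.48% to 10.9% of its gene over the 16 libraries, and neither was called in a knockdown contrast with all libraries in the fit. A match describes the letters of this window and does not show binding.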

How the data were processed

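Polyadenylated RNA of 16 HCT116 libraries was sequenced by a strand-specific protocol, per the labels. The 6 groups and the replicate numbers come from the titles. The authors deposited 1 table of estimated counts for each transcript, made with kallisto per the submitters' processing notes, as whole numbers that appear rounded at the top of the range (the 18 largest, with at least 7 digits, have a final 0). kallisto, DESeq2 and hg19 are named, without versions, in the submitters' processing notes. The index is not given in the sources used here.

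Ensembl identifiers placed 156584 of 166096 transcripts in GENCODE 29 (GRCh38), whose coordinates are used. The 9512 others were left out. Their counts were added up over 31496 genes, then rounded. edgeR 4.0.16 (R 4.3.3) tested 19836 genes that passed filterByExpr, with TMM scaling, 1 mean per group over all libraries, glmQLFit (robust), glmQLFTest and Benjamini-Hochberg adjustment at 0.05. Transcript usage was tested with limma 3.58.1 on the log2 ratio of a transcript to the rest of its gene (0.5 counts added, share of at least 5% in a group, mean of at least 50 counts). The minimum of 50 was added after simulated counts gave too many false calls without it. The class ratio used limma and at least 10 counts in each class. The edgeR gene test and the limma usage and class-ratio tests were also checked on simulated data, for knockdown against wild type at 24 h, 48 h and 96 h. The test between times, the comparison of wild type over time, diffSpliceDGE and DESeq2 were not checked in this way.

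Depth lay between 28391784 and 51853876 estimated counts, so the number of libraries (2 or 3 per group) limits precision more than counting. No replicate pair was within sampling noise of being 1 library (chi-square per degree of freedom of 7.84 or more). The members and the gene lists were chosen with earlier results of these data known. The text names all members, NORAD, up to 4 genes per list with the lowest p at 48 h or 96 h, and the 5 genes most correlated with the members' mean. Of the member transcripts with a share of at least 5%, only some are named. Not every transcript call in wild type over time is given by name. Of 80 list symbols 79 matched. Alternatives were other scalings, DESeq2 1.42.0, no filter, coding transcripts only, other offsets and shares, diffSpliceDGE, a replicate block, and each library left out.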

Additional observations from a re-analysis of the deposited data

How the results depend on the processing

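With all libraries, 3484, 6591 and 2083 genes were called at 24 h, 48 h and 96 h, 1872 between times and 6984 in wild type over time. Fits of only the 2 groups compared called 4072 at 48 h and 3450 at 96 h, and DESeq2 called 2846 between times. Leaving out 1 library gave 1500 to 4558, 4845 to 8869, 1239 to 3069, 1052 to 5035 and 4490 to 8276. Transcript usage called 7, 144, 3 and 3267 transcripts, and with 1 library left out 4 to 83, 30 to 4448, 2 to 6 and 1617 to 4279. With no count minimum it called 66 at 24 h and 18 at 96 h, and diffSpliceDGE called 91, 55 and, in wild type over time, 746. The class ratio called 2, 18 and 3 genes, and with 1 library left out 2 to 17, 1 to 1538 and 0 to 5. An offset of 5 counts gave 1 at 24 h and 8 at 48 h, retained introns alone 1, 28 and 0, and the decay class alone 9 at 24 h and 11 at 48 h. The highest counts at 48 h came without knockdown replicate 3. Beside these, the cause of each change was not tested.

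Same-numbered libraries did not deviate together (r of their deviations -0.03 at 24 h, -0.10, -0.15 and -0.26 at 48 h, -0.04, 0.00 and 0.06 at 96 h), so the numbers do not pair the samples. With a replicate block, 2587, 5227, 1437 and 900 genes were called at 24 h, 48 h, 96 h and between times, 6411 in wild type over time, 0, 2 and 0 transcripts, and 1, 1 and 0 class ratios. Member calls under the block were 6, 9 and 5.

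Of 390 member gene values under other settings, 338 kept direction and side of the threshold, 21 lost the call, 15 gained it, and 13 changed sign without a call under either setting. Another 3 changed sign with a call under 1 of the 2 settings, all under abundance-dependent scaling: HNRNPA2B1 at 24 h (0.0271), and HNRNPC (0.19) and HNRNPA2B1 (0.31) in wild type over time. The planned sum of members with their processed pseudogenes could not be run, because 0 genes named as such were among those matched. Counts of near-identical pseudogenes may therefore sit with the members.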
